A study of Mus musculus with 12 samples.

Results

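Satellite cells of old mice labelled as Hoxa9 knock-out were set against satellite cells of young wild-type mice, to ask how far the first lie from the second. Libraries were chosen by their labels: 3 of old Hoxa9 knock-out mice and 3 of young wild-type mice, 6 of the 12 RNA-seq libraries in the series. All mice were of the C57BL/6 strain. The old animals were 22 to 28 months of age and the young ones 3 to 4 months. In every group, hindlimb muscle had been injured with 50 µl of 1.2% barium chloride, given at about 20 sites, and the cells were collected 3 days later. Total RNA was sequenced after removal of ribosomal RNA. Nothing in the labels tells which stretch of Hoxa9 was deleted, how the cells were purified, or whether a library stands for 1 mouse, so p-values measure only the spread between these samples. Age and genotype both differ between the groups compared, and their shares in a difference cannot be told apart from these 6 libraries alone. The levels in old wild type and young knock-out (3 libraries each) are therefore given beside many of the leading genes. Every contrast with those groups shares libraries with the present one.

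Satellite cells are the stem cells of skeletal muscle. They lie between the muscle fibre and its basement membrane, carry the transcription factor Pax7, and after injury they divide, differentiate and fuse into fibres. Notch signalling holds them in the undifferentiated state, and Wnt, TGF-beta, BMP and JAK-STAT signalling act on their exit from quiescence, their division and their differentiation. Hoxa9 belongs to the homeobox genes that set position along the body axis in the embryo, and Trithorax and Polycomb proteins keep such genes active or silent.

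Reads counted in genes ranged from 4453886 to 14713194 in old knock-out and from 6125999 to 20337015 in young wild type. Reads outside genes made up 32.7% to 70.8% of uniquely aligned reads in old knock-out and 35.2% to 38.3% in young wild type. Lars2, the mitochondrial leucyl-tRNA synthetase, took 6.53%, 0.646% and 25% of gene reads in the 3 old knock-out libraries and at most 0.11% in young wild type. Old knock-out replicates 2 and 3 carried Y-linked reads at levels far above the other libraries, which is described with the sex-linked genes. Satellite cell markers were present in all 6 libraries: Pax7 stood at 169 to 397 CPM (counts per megaread of scaled gene reads), Itga7 at 1160 to 1630 CPM, Cdh15 at 798 to 1290 CPM, Vcam1 at 768 to 1120 CPM, Myf5 at 135 to 294 CPM, Myod1 at 86.3 to 219 CPM and Calcr at 12.8 to 58.7 CPM.

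Hoxa9 reads were fewer but not absent. The level was 7.96, 11.4 and 11.5 CPM in young wild-type replicates 1 to 3 and 6.46, 4.55 and 6.39 CPM in old knock-out replicates 1 to 3, from 43, 68 and 22 reads. The 3 old knock-out libraries lay below the 3 young wild-type libraries, and 41.2% of all genes tested had groups that did not overlap in this way or the other. The log2 fold change, old knock-out minus young wild type, was -0.84 ± 0.25 (SE, 95% interval -1.38 to -0.31), and edgeR's quasi-likelihood test gave an adjusted p of 0.0296. The call was lost without old knock-out replicate 2 (adjusted p = 0.125) or 3 (0.0629), without young wild-type replicate 2 (0.0917) or 3 (0.0935), and with per-library offsets for GC content and transcript length (0.0541). Old wild type held 17.6 ± 4.27 CPM and young knock-out 6.4 ± 0.848 CPM (SD, n = 3).

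Of 13540 genes tested, 1481 were higher (10.9%) and 1343 lower (9.92%) in old knock-out at an adjusted p under 0.05, 2824 in all (20.9%). Most of these estimates lay within 2-fold: 345 genes were more than 2-fold higher and 441 more than 2-fold lower. A test against a 1.5-fold minimum was passed by 167 genes, and missing it does not show that a difference is small. The median absolute log2 fold change over all genes was 0.37, and the signed median was -0.01. The number of calls depended on single libraries. It was 1364 without old knock-out replicate 3, 1584 without young wild-type replicate 2, 2016 to 2209 without any other one, and 462 without both old knock-out libraries with Y-linked reads, when replicate 1 stands alone. When counts were scaled by library size alone, 27.7% of calls were higher, against 52.4% in the main fit, and the median of all genes moved to -0.17. In the same fit 144 genes (1.06%) differed between old and young wild type, 2831 (20.9%) between the genotypes in young mice, 2265 (16.7%, with 9.52% higher and 7.21% lower) between the genotypes in old mice and 2 (0.0148%) between old and young knock-out.

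Distances between whole libraries were also computed. The distance is the root mean square difference in log2 CPM over all tested genes. Pairs of young wild-type libraries lay 0.437 to 0.569 apart and pairs of old knock-out libraries 0.595 to 0.681 apart. The 9 pairs of 1 young wild-type and 1 old knock-out library lay 0.745 to 0.975 apart, with a median of 0.842. None came within the range inside either of these groups. Pairs inside old wild type lay 0.479 to 0.605 apart. Pairs inside young knock-out lay 0.569 to 0.972 apart (median 0.822), a range that overlaps the one between the groups compared. The pairs with young wild-type replicate 2 were the furthest, at 0.897, 0.905 and 0.975. The median distance of young wild type was 0.641 to old wild type and 0.895 to young knock-out, and that of old knock-out was 0.843 to old wild type and 0.700 to young knock-out. With GC and length offsets the median from young wild type to old knock-out was 0.774.

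**Figure D1:**
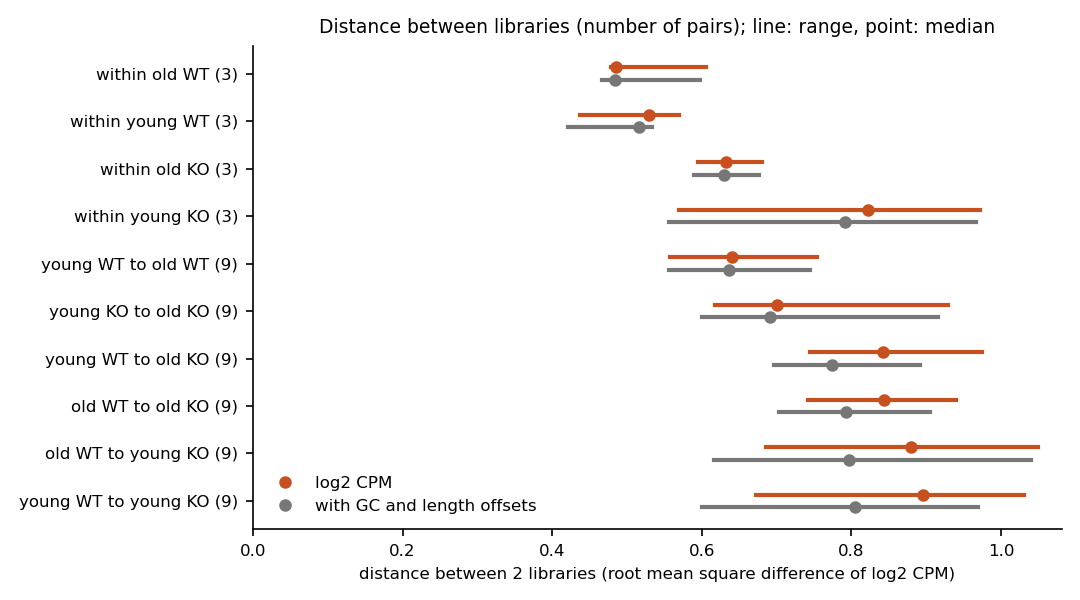
Distance between pairs of libraries as the root mean square difference in log2 CPM, within each group and between groups, with the number of pairs in brackets. Lines span the lowest to the highest pair, points mark the median, and grey marks the values with GC and length offsets. The 9 pairs of young wild type and old knock-out lie between 0.745 and 0.975, above every pair within young wild type (at most 0.569) and within old knock-out (at most 0.681). Pairs within young knock-out reach 0.972.

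**Figure D2:**
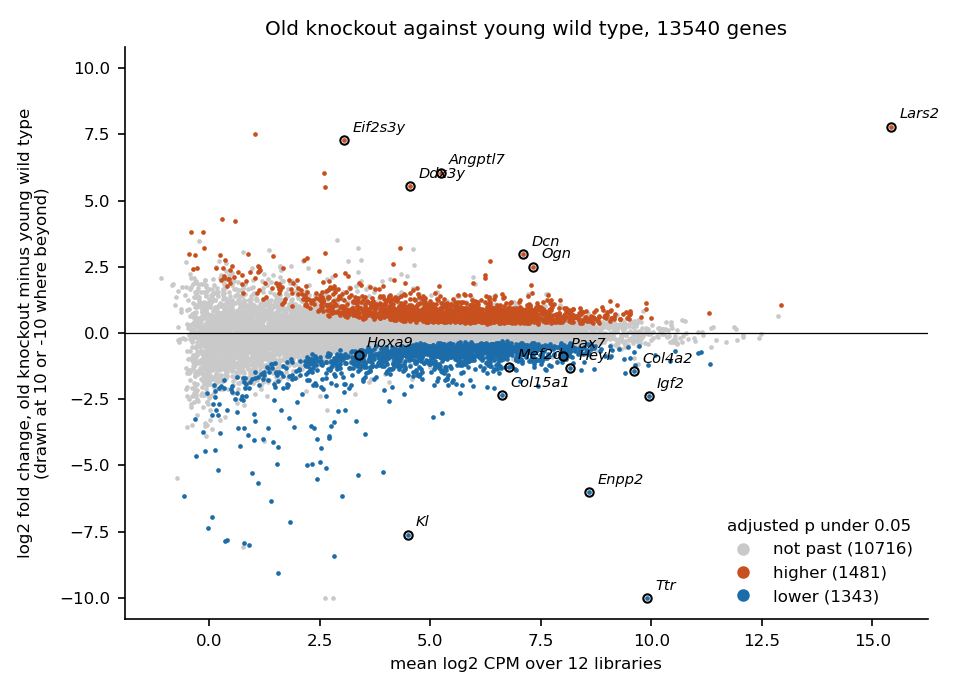
Log2 fold change of each of 13540 genes, old knock-out minus young wild type, against its mean log2 CPM over 12 libraries, with the 1481 higher and 1343 lower genes in colour. Genes beyond 10 on either side are drawn at the edge, and circles mark genes described in the text.

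Fold changes ran with the base composition of the genes. Spearman's rho between log2 fold change and GC content was -0.507 across 13267 genes, which are not independent replicates, and 0.123 with transcript length. In the low-GC group of genes (32.6% to 46.8% GC) the median log2 fold change was 0.37, and 27.3% of genes were higher and 2.22% lower. In the high-GC group (53.2% to 72.8%) the median was -0.30, and 0.995% were higher and 19.8% lower. Taken library by library, the deviation of a gene's level from its mean over the 12 libraries also followed GC content, with rho of 0.384 to 0.471 in young wild type and -0.374 to -0.286 in old knock-out. With per-library offsets for GC content and length, 642 genes were higher and 773 lower. Of the 2824 calls, 1036 (36.7%) were also called with the offsets, all with the same sign. Counts with the offsets are given below for each group of genes that they change by more than 1.5 times, and the part of base composition in each difference was not tested further.

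**Figure D3:**
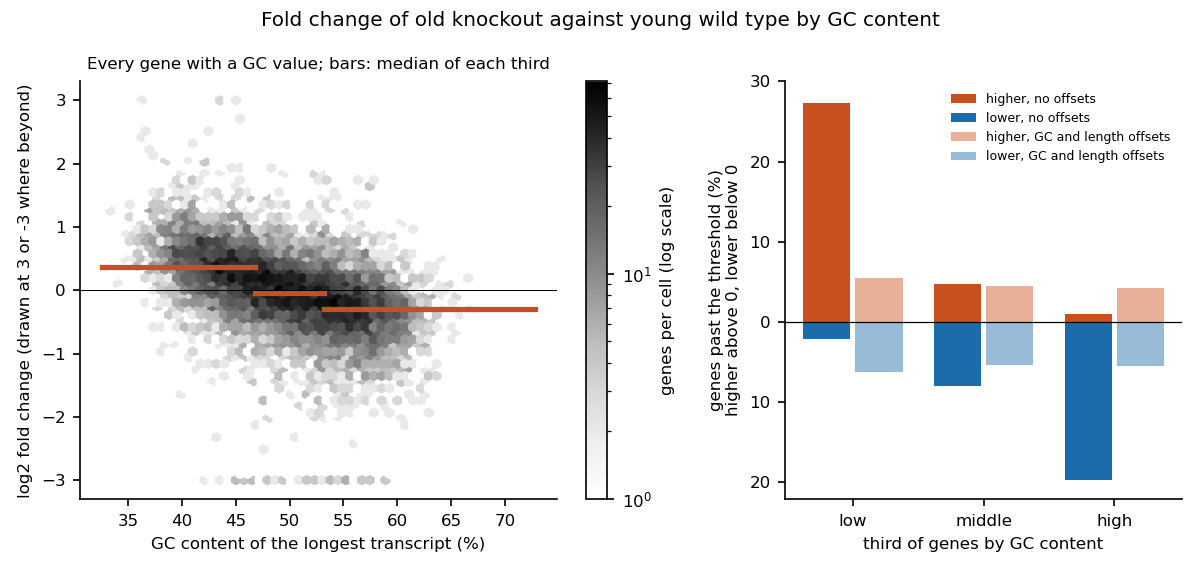
Left, log2 fold change (old knock-out minus young wild type, drawn at 3 or -3 where beyond) against GC content of the longest transcript, shaded by the number of genes on a log scale, with a bar at the median of each GC class. Right, percent of genes higher (above 0) and lower (below 0) in each class without and with offsets. Without offsets 27.3% of low-GC genes were higher and 19.8% of high-GC genes lower.

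The genes of the lists below and the largest changes held 207 genes past the threshold. Of these, 102 stayed past it whichever 1 of the 6 libraries was left out, and 11 stayed past it in all 22 alternative analyses: Heyl, Gpc3, Stc1, Col15a1, Col6a2, Mef2d, Bcl9 and Bcl9l, which fell, and Col4a6, Nrcam and Rpl15, which rose. They are given in full where their group is described.

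Type IV collagen, the network-forming collagen of the basement membrane, split by gene pair. The genes lie in pairs that are transcribed away from each other from neighbouring starts. Col4a1 and Col4a2, which encode the widespread network chains, fell, and Col4a5 and Col4a6 rose. Col4a1 stood at 2320, 1760 and 2210 CPM in young wild type against 1280, 726 and 1030 CPM in old knock-out. Col4a2 stood at 1560, 1080 and 1400 CPM against 556, 424 and 505 CPM. Every old knock-out library was below every young wild-type one for both genes. The log2 fold change was -1.05 ± 0.21 for Col4a1 (adjusted p = 0.00483) and -1.45 ± 0.16 for Col4a2 (adjusted p = 0.000425). Old wild type held 829 ± 56.4 and 563 ± 47.4 CPM of them, and young knock-out 1560 ± 318 and 725 ± 63.7 CPM. Col4a6 stood at 5, 5.25 and 4.25 CPM in young wild type against 18.3, 15.5 and 17.1 CPM in old knock-out, a log2 fold change of 1.81 ± 0.28 (adjusted p = 0.00129), beside 14.2 ± 2.52 CPM in old wild type and 7.1 ± 3.35 CPM in young knock-out. Col4a5 was more abundant and moved less, from 55.3 ± 8.90 to 74.2 ± 6.16 CPM (0.42 ± 0.14, adjusted p = 0.0491), and its call was lost without old knock-out replicate 1, 2 or 3 or young wild-type replicate 1 or 2 (adjusted p 0.0584 to 0.18). The remaining pair, Col4a3 and Col4a4, did not pass, at 2.27 ± 1.55 against 1.96 ± 0.952 CPM and 2.11 ± 0.243 against 2.85 ± 1.31 CPM.

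In RefSeq (GRCm38.p6) the starts of Col4a1 and Col4a2 lie 21 bases apart on chromosome 8, and those of Col4a5 and Col4a6 lie 1343 bases apart on chromosome X. The 250 bases upstream of the start hold 74.4% and 73.6% G or C in the first pair and 54% and 47.6% in the second, against a median of 52.4% over 32536 such windows. The upstream sequences of the pair that rose are given because their genes are the type IV collagens called higher in old knock-out. Each is printed 5′ to 3′ on the strand of its gene, Col4a5 from chrX:141475169-141475418 on the plus strand and Col4a6 from chrX:141474077-141474326 on the minus strand. Capitals mark GGGCGG (the GC box) and CCAAT (the CCAAT box) on either strand.
Col4a5: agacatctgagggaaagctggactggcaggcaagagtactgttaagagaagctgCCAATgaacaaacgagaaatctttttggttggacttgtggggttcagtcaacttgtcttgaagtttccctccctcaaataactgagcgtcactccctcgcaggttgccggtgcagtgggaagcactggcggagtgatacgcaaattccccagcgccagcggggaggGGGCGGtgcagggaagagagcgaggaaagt
Col4a6: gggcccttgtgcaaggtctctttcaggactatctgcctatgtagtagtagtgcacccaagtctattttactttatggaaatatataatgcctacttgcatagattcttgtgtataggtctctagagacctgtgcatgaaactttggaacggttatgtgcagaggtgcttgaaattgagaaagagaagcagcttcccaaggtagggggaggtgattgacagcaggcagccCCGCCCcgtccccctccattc
The Col4a5 window holds 1 GC box and 1 CCAAT box, and the Col4a6 window holds 1 GC box, read on the opposite strand, and no CCAAT box. A GC box occurs in 33% and a CCAAT box in 33.8% of all 32536 windows. The letters TGATTTAT, a site bound by HOXA9 with PBX, were searched on both strands and are in neither window, and occur in 0.836% of all windows. These matches describe letters in a window and say nothing of binding.

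Of 21 basement membrane genes tested, 2 rose (9.52%) and 6 fell (28.6%), against 10.9% and 9.92% of all genes (median log2 fold change -0.24). Besides the type IV collagens, Col15a1, which links the membrane to the underlying matrix, fell from 267, 147 and 241 CPM to 53.5, 25.6 and 51.7 CPM. That is a log2 fold change of -2.35 ± 0.31 (adjusted p = 0.00102), and the groups did not overlap. Old wild type held 33.2 ± 8.3 CPM and young knock-out 98 ± 14.8 CPM. Sparc, a collagen chaperone and matrix glycoprotein, fell from 3090 ± 80 to 1820 ± 271 CPM (-0.77 ± 0.14, adjusted p = 0.00348). Lamb1, a laminin beta chain, fell by 0.87 on the log2 scale. With GC and length offsets 3 rose and 5 fell. The number higher was 1, and the number lower 6 or 7, with limma-voom, without the filter on low counts and under each of the 3 other scalings. Col4a1 kept its call with the offsets (-0.68, adjusted p = 0.0446) and had 0.0749 with the offsets and the replicate block. Leaving out single libraries left 5 or 6 lower, and 1 higher except without young wild-type replicate 3, where it was 2.

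The list of genes reported as changed by age in wild type holds 36 members, and it was chosen from a contrast that shares the young wild-type libraries, so its direction is not independent evidence. In old knock-out against young wild type, 7 members were higher (19.4%) and 17 lower (47.2%), against 10.9% and 9.92% of all genes. The median log2 fold change was -0.89, and 12 members did not pass. Genes of the matrix and of satellite cell identity were among those that differed, while Il1b, Tnf and Slc7a11 did not pass.

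Il1b and Tnf, which encode the inflammatory cytokines interleukin 1 beta and tumour necrosis factor, lay near their young wild-type level. Il1b stood at 1.26, 0.617 and 1.04 CPM in young wild type against 0.901, 0.535 and 0.872 CPM in old knock-out and 10.4 ± 0.955 CPM in old wild type. The groups compared overlapped, with a log2 fold change of -0.51 ± 0.57 (95% interval -1.72 to 0.71; adjusted p = 0.564). Tnf stood at 0.582, 0.926 and 0.401 CPM in young wild type against 0.451, 0.870 and 1.45 CPM in old knock-out and 4.44 ± 0.550 CPM in old wild type (0.51 ± 0.51, adjusted p = 0.516). Slc7a11, the cystine transporter, stood at 1.30 ± 0.436, 1.61 ± 0.416 and 6.42 ± 1.92 CPM in these groups (adjusted p = 0.67). These intervals are wide, so a missed threshold does not show equal levels. Macrophage and monocyte markers, which Il1b and Tnf are also found with, summed to 43.9 to 79.8 CPM in young wild type, 35.4 to 144 CPM in old knock-out and 236 to 268 CPM in old wild type. In young knock-out they summed to 40 to 289 CPM with a median of 44.7 CPM, so its highest library exceeded every old wild-type one. Whether the cytokine levels follow the number of such cells was not tested, and in bulk samples fewer cells of a type and less RNA per cell cannot be told apart.

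Other members with no call were Fstl1, a secreted follistatin-like protein, at 516 ± 71.6 CPM in young wild type against 515 ± 79.1 CPM in old knock-out (old wild type 296 ± 26.2 CPM), and Mmp2, the gelatinase A metalloproteinase, at 148 ± 21.8 and 126 ± 45.5 CPM (old wild type 64.4 ± 7.66 CPM). Col3a1, a fibrillar collagen, had a log2 fold change of -0.34 ± 0.15 (adjusted p = 0.122), Fgfr4, a fibroblast growth factor receptor of satellite cells, -0.31 ± 0.14 (0.14), Col1a1 -0.94 ± 0.31 (0.052) and Col22a1, a collagen of the myotendinous junction, -1.72 ± 0.57 (0.0559). Kcnj8 (-0.67 ± 0.49), Tril (-0.53 ± 0.23) and Zfp82 (0.02 ± 0.26) did not pass either. Col1a1 passed without old knock-out replicate 2 (adjusted p = 0.0204) and Tril without young wild-type replicate 3 (0.0497). DESeq2 also called Col1a1 (0.0117), Col3a1 (0.0437) and Col22a1 (0.00753).

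Members that differed covered matrix, adhesion and signalling genes. Gpc3, a glypican that binds growth factors, stood at 169, 118 and 175 CPM in young wild type against 33.2, 28.6 and 53.2 CPM in old knock-out (-2.04 ± 0.23, adjusted p = 0.000425). Stc1, the secreted stanniocalcin 1, fell from 22.3, 12 and 17.5 CPM to 2.70, 2.21 and 1.74 CPM (-2.94 ± 0.32, adjusted p = 0.000369). For both, all old knock-out libraries lay below all young wild-type ones. Old wild type stood at 25.1 ± 2.97 CPM for Gpc3 and 3.04 ± 0.468 CPM for Stc1, and young knock-out at 93.7 ± 14.5 and 5.51 ± 1.81 CPM. Nrcam, a cell adhesion molecule of the immunoglobulin family, rose from 12.3, 10.2 and 12.7 CPM to 41.3, 37.5 and 29.6 CPM (1.62 ± 0.21, adjusted p = 0.000609), beside 32.6 ± 6.73 CPM in old wild type and 16.5 ± 3.89 CPM in young knock-out. Zfp52, a zinc finger gene, rose by 1.67 ± 0.29 and Mmp19, a metalloproteinase, by 1.29 ± 0.32. Polr3g, a subunit of RNA polymerase III, rose by 1.16 ± 0.25, Prrg4 by 1.02 ± 0.26 and Slc9a2, a sodium-proton exchanger, by 0.99 ± 0.28.

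Ctnna2, an alpha-catenin, fell by 1.96 ± 0.36, C530008M17Rik by 2.05 ± 0.29, Cd248, the stromal marker endosialin, by 1.45 ± 0.40 and Fibin, a secreted protein, by 0.93 ± 0.25. Single libraries ended 5 of these calls. Mmp19 was lost without young wild-type replicate 1 (adjusted p = 0.0508) or 2 (0.0543). Prrg4 was lost without old knock-out replicate 1 (0.0642) or young wild-type replicate 2 (0.0506). Slc9a2 was lost without old knock-out replicate 2 or 3 or young wild-type replicate 2 or 3 (0.0521 to 0.0902), Cd248 without old knock-out replicate 2 or 3 or young wild-type replicate 1 or 2 (0.0684 to 0.0895), and Fibin without old knock-out replicate 1 or 2 or young wild-type replicate 1 or 2 (0.0511 to 0.0699). With 1 library left out, 4 to 6 members were higher (4 without young wild-type replicate 2) and 15 to 18 lower, and 4 higher and 11 lower without both libraries with Y-linked reads.

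**Figure D4:**
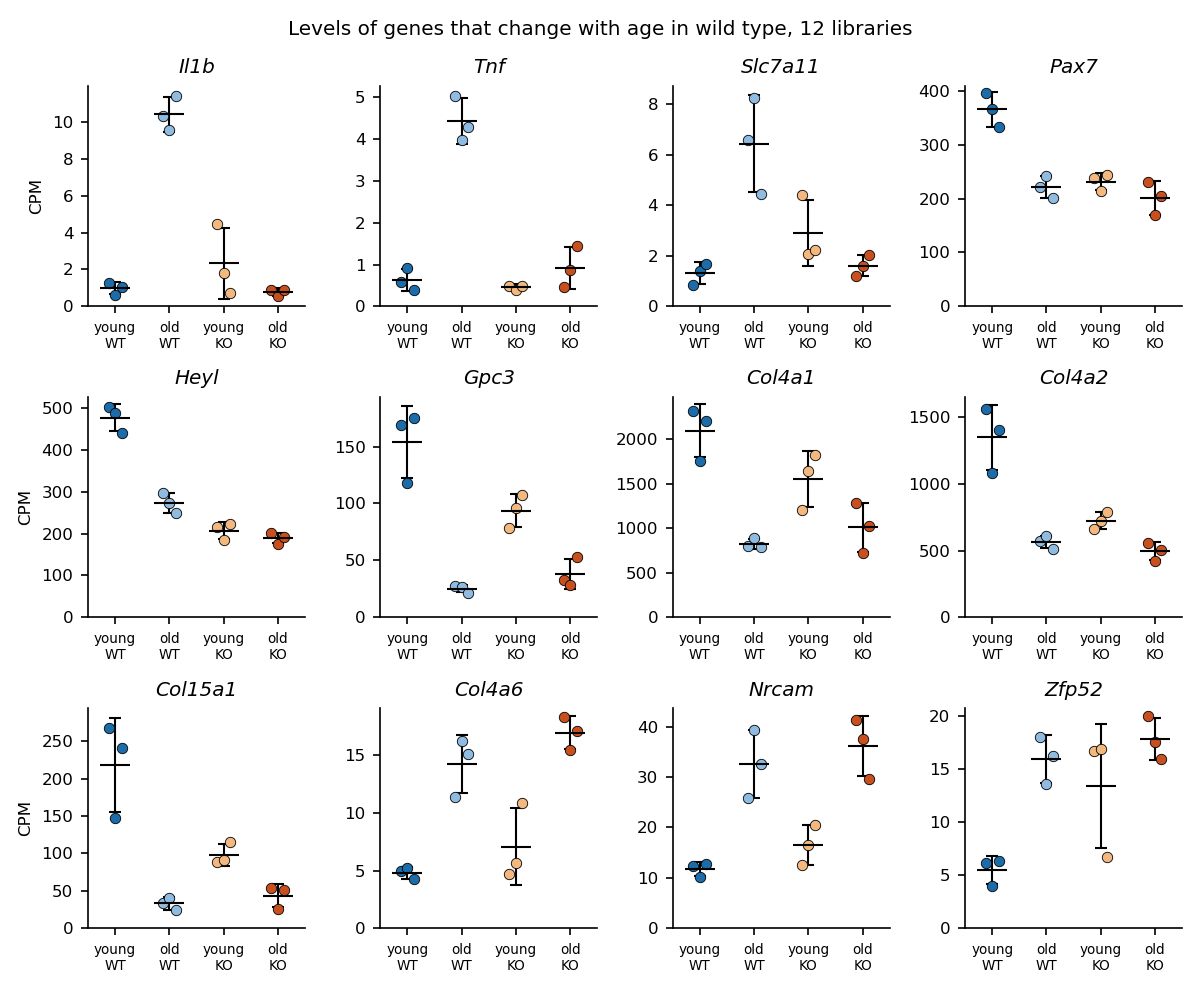
CPM of 12 genes of the list in each of the 12 libraries, by group, with points for libraries and bars for mean ± SD. Il1b, Tnf and Slc7a11 have higher means in old wild type than in young wild type or old knock-out. Pax7, Heyl, Gpc3, Col4a1, Col4a2 and Col15a1 are low and Col4a6, Nrcam and Zfp52 high in old knock-out against young wild type.

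Pax7, the defining transcription factor of these cells, stood at 397, 367 and 333 CPM in young wild type against 231, 169 and 204 CPM in old knock-out. The groups did not overlap, and the log2 fold change was -0.86 ± 0.14 (adjusted p = 0.0017). The mean was 221 ± 20.3 CPM in old wild type and 232 ± 15.3 CPM in young knock-out. Heyl, a transcriptional repressor induced by Notch, fell from 502, 489 and 440 CPM to 201, 176 and 191 CPM (-1.33 ± 0.13, adjusted p = 0.000203), beside 273 ± 23.2 CPM in old wild type and 207 ± 20.2 CPM in young knock-out. Of 30 genes of satellite cell identity and quiescence, 2 rose and 6 fell (median -0.32), against 10.9% and 9.92% of all genes. The 2 that rose were Itgb1, the beta 1 integrin that ties the cell to its basement membrane (855 ± 103 to 1280 ± 120 CPM, log2 fold change 0.58 ± 0.14), and Met, the receptor of hepatocyte growth factor (0.63 ± 0.18). The call of Met was lost without old knock-out replicate 2 or 3 or young wild-type replicate 2 or 3 (adjusted p 0.0602 to 0.108). Dag1, dystroglycan, fell by 0.71 ± 0.14. Myf5 (-0.57 ± 0.21, adjusted p = 0.0753) and Myod1 (-0.41 ± 0.71, adjusted p = 0.731), the myogenic factors of activated cells, did not pass. With the offsets 0 rose, Itgb1 (adjusted p = 0.0828) and Met (0.0831) included, and 5 fell. Without old knock-out replicate 3 or young wild-type replicate 1 the number lower was 3. DESeq2 gave 2 higher and 10 lower, and library-size scaling 0 and 11.

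Receptors, processing enzymes and targets of the Notch pathway moved unevenly. Notch3 fell from 1970 ± 308 to 1240 ± 227 CPM (-0.66 ± 0.17, adjusted p = 0.0167) and Notch1 by 0.47 ± 0.14 (adjusted p = 0.0278), and Notch2 had a log2 fold change of -0.01 ± 0.14. Among the ligands, Dll1 (-0.35 ± 0.19) and Jag1 (0.30 ± 0.22) did not pass. Adam17, a protease that can cut Notch at the membrane, rose from 90.8 ± 7.50 to 140 ± 15.5 CPM (0.62 ± 0.12, adjusted p = 0.00465). Rbpj, the DNA-binding partner of cut Notch, rose by 0.62 ± 0.16, and Numbl, a Notch antagonist, fell by 0.57 ± 0.12. Of the targets, Heyl fell, while Hes1 (-0.72 ± 0.25, adjusted p = 0.0525) and Hey1 (-0.73 ± 0.34, adjusted p = 0.154) did not pass. In all 2 of 28 members rose (7.14%) and 6 fell (21.4%), against 10.9% and 9.92% of all genes (median -0.40). With the offsets 1 rose (Adam17) and 1 fell (Heyl). Notch1 lost its call without old knock-out replicate 1, 2 or 3 or young wild-type replicate 1 (adjusted p 0.0656 to 0.105). Notch3 lost it without old knock-out replicate 2 (adjusted p = 0.0637) or 3 (0.0563) or young wild-type replicate 1 (0.0605), and Rbpj without old knock-out replicate 3 (0.0612) or young wild-type replicate 2 (0.0645). The number lower was 2 without old knock-out replicate 3 and 3 without old knock-out replicate 1 or young wild-type replicate 1. Library-size scaling gave 0 higher and 10 lower.

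Of 42 genes of the interstitial matrix 2 rose (4.76%), 9 fell (21.4%) and 31 did not pass, against 10.9% higher and 9.92% lower of all genes. The median was -0.24, and -0.00 with the offsets. Col6a2, a chain of the beaded-filament collagen VI, stood at 548, 437 and 444 CPM in young wild type against 192, 233 and 225 CPM in old knock-out (-1.13 ± 0.14, adjusted p = 0.000473). Its partner chain Col6a1 fell by 0.71 ± 0.14. Old wild type held 211 ± 24.4 CPM and young knock-out 289 ± 20.3 CPM of Col6a2. Eln, elastin, fell from 36.1 ± 9 to 8.22 ± 4.66 CPM (-2.15 ± 0.39, adjusted p = 0.00347), with 9.55 ± 2.47 CPM in old wild type and 6.08 ± 2.59 CPM in young knock-out. Col5a3 fell by 0.96 ± 0.16 and Col16a1 by 0.86 ± 0.14. Thbs1, thrombospondin 1, rose by 0.68 ± 0.18 and Lox, the enzyme that cross-links collagen and elastin, by 0.80 ± 0.25, the latter with overlapping groups. Both calls were lost without old knock-out replicate 3 (adjusted p 0.0652 and 0.146) or young wild-type replicate 2 (0.0719 and 0.148), and that of Lox also without old knock-out replicate 2 (0.138) or young wild-type replicate 3 (0.115). With the offsets 2 rose and 4 fell, and Col6a1 (adjusted p = 0.15), Col5a3 (0.0737) and Col16a1 (0.0554) were not called. Without old knock-out replicate 3, 0 rose and 5 fell, without young wild-type replicate 2, 0 rose and 8 fell, and without old knock-out replicate 1, 4 rose and 6 fell. DESeq2 gave 5 higher and 12 lower, library-size scaling 0 and 11, the fit without the filter 1 and 8, and the fit without Lars2 4 and 7.

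Of 24 tendon genes 7 rose (29.2%, against 10.9% of all genes), 0 fell and 17 did not pass, with a median of 1.67. Ogn, the small proteoglycan osteoglycin, stood at 40.6, 51.4 and 52.8 CPM in young wild type against 365, 160 and 300 CPM in old knock-out (2.51 ± 0.35, adjusted p = 0.00129), beside 57.0 ± 1.07 CPM in old wild type and 260 ± 106 CPM in young knock-out. Dcn, decorin, rose from 41.0, 35.2 and 39.1 CPM to 198, 166 and 551 CPM (2.98 ± 0.74, adjusted p = 0.0203), beside 19.8 ± 2.01 CPM in old wild type and 193 ± 191 CPM in young knock-out. Angptl7, a secreted angiopoietin-like protein, rose from 1.99, 0.617 and 2.16 CPM to 13.8, 62.6 and 279 CPM (6.05 ± 1.16, adjusted p = 0.00715). Old wild type held 2.38 ± 1.4 CPM and young knock-out 35.2 ± 17.5 CPM of Angptl7. These 3 genes did not overlap between the groups compared. Comp, the cartilage oligomeric matrix protein, and Fmod, fibromodulin, were called although old knock-out replicate 1 lay within young wild type: Comp stood at 6.91, 69.5 and 81.4 CPM against 4.17 to 7.08 CPM, and Fmod at 28.4, 145 and 415 CPM against 19.9 to 38.1 CPM. Scx, the transcription factor of tendon cells, had a log2 fold change of -0.12 ± 0.25 and Tnmd, tenomodulin, 2.30 ± 0.91 (adjusted p = 0.102). The summed level of the list was 401 to 577 CPM in young wild type against 986 to 2730 CPM in old knock-out. Without both old knock-out libraries with Y-linked reads 1 member (Ogn) passed and the median was 0.06. Leaving out 1 library gave 15 without old knock-out replicate 1, 4 without old knock-out replicate 2 or young wild-type replicate 1, and 2 without old knock-out replicate 3 or young wild-type replicate 2 or 3. Comp and Fmod were lost without old knock-out replicate 2 or 3 or any 1 young wild-type library (adjusted p 0.0533 to 0.131), and Dcn without old knock-out replicate 3 or any 1 young wild-type library (0.059 to 0.07). With the offsets 4 were called, with DESeq2 14, with limma-voom 3, with library-size scaling 4 and with only the 6 libraries compared 2.

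In muscle differentiation 0 of 39 genes rose and 8 fell (20.5%, against 9.92% of all genes), with a median of -0.40. Mef2d, a transcription factor of muscle genes, stood at 142, 146 and 143 CPM in young wild type against 63.2, 62.5 and 50.3 CPM in old knock-out. Its log2 fold change was -1.28 ± 0.14 (adjusted p = 0.000356), with 167 ± 2.08 CPM in old wild type and 70.3 ± 11.3 CPM in young knock-out. The troponins of embryonic and slow muscle were lower, Tnnt1 by 1.11 ± 0.21, Tnnt2 by 1.02 ± 0.22, and Tnni1 by 1.36 ± 0.30. Tnnc1, the acetylcholine receptor subunits Chrng and Chrnd, and Tmem8c, the fusion protein myomaker, fell by 1.21 ± 0.39, 1.18 ± 0.30, 0.73 ± 0.23 and 0.84 ± 0.24. These 4 calls were lost without old knock-out replicate 3 or young wild-type replicate 1 or 2 (adjusted p 0.0569 to 0.155) and with the offsets (0.0669 to 0.247), and part of them without each other library. Myog, the transcription factor that starts terminal differentiation, did not pass, at 844 ± 166 against 624 ± 134 CPM. The number lower was 16 without old knock-out replicate 1 and 4 without old knock-out replicate 3 or young wild-type replicate 1 or 2. With the offsets it was 4.

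Old knock-out replicate 1 differed from replicates 2 and 3 in genes of mature fibres. Myh4, the heavy chain of fast fibres, stood at 308, 16.0 and 51.1 CPM in old knock-out replicates 1 to 3 and 22.9 to 55.2 CPM in young wild type, and Ckm, muscle creatine kinase, at 323, 26.2 and 58.1 CPM against 73.9 to 170 CPM. The giant sarcomere proteins titin (Ttn, 0.63 ± 0.40, adjusted p = 0.289) and nebulin (Neb, 0.83 ± 0.38, adjusted p = 0.148) did not pass. Neb passed without young wild-type replicate 1 (1.26, adjusted p = 0.0493). Of 26 myofibre genes none passed (median 0.27), against 10.9% higher and 9.92% lower of all genes. DESeq2 called 1, and at an unadjusted p under 0.05 the count was 2. With the offsets 1 rose, and with the replicate block 1 fell. Without old knock-out replicate 2, 2 rose, and without young wild-type replicate 1 or 2, 1 rose. Without old knock-out replicate 1, 7 fell and the median was -0.79. Without both libraries with Y-linked reads, which leaves replicate 1 alone, the median was 1.04. That value restates the high levels of replicate 1. The list summed to 5100 to 10700 CPM in young wild type against 9030 to 13700 CPM in old knock-out, and its part in the differentiation list was not tested.

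In the Wnt pathway 4 of 48 members rose (8.33%) and 11 fell (22.9%), against 10.9% and 9.92% of all genes. The median was -0.03 against -0.01 over all genes. Bcl9 and Bcl9l, co-activators of beta-catenin, stood at 51.7, 40.4 and 40.9 and at 79.8, 66.5 and 47.2 CPM in young wild type. In old knock-out they stood at 11, 14.5 and 14.2 and at 17.1, 17.1 and 23.5 CPM. Neither gene overlapped between groups, with log2 fold changes of -1.75 ± 0.21 (adjusted p = 0.000456) and -1.77 ± 0.24 (adjusted p = 0.000845). Old wild type held 36.5 ± 3.31 and 52.8 ± 6.5 CPM and young knock-out 16.8 ± 4.78 and 21.7 ± 6.37 CPM. The transcription factors Tcf7l1 (-1.97 ± 0.42) and Tcf7l2 (-1.05 ± 0.23) fell, as did Dvl3 (-1.43 ± 0.26), which passes the signal on from the receptor. The co-receptor Lrp5 (-0.75 ± 0.10) and the planar polarity protein Vangl2 (-0.97 ± 0.17) fell too. Csnk1a1, a kinase that marks beta-catenin for decay, rose from 384 ± 22.0 to 677 ± 59.6 CPM (0.82 ± 0.13), while Gsk3a, a further kinase of the same complex, fell by 0.83 ± 0.15. The other 3 that rose, the receptor Fzd3 (0.80 ± 0.21), the scaffold Apc (0.62 ± 0.16) and the secreted inhibitor Wif1, lost their calls without old knock-out replicate 3 or young wild-type replicate 2 or 3 (adjusted p 0.0518 to 0.148). Fzd3 and Wif1 lost them also without old knock-out replicate 2 (0.0545 and 0.0844), and Wif1 without replicate 1 (0.0536). With the offsets 3 rose and 9 fell and the median was 0.08. The 3 were Csnk1a1, Fzd1 and Nkd2, and the adjusted p of Fzd3 was 0.364, of Apc 0.0579 and of Wif1 0.0702. Library-size scaling gave 1 higher and 12 lower. Leaving out single libraries left 9 to 11 lower, and 1 higher without old knock-out replicate 3 or young wild-type replicate 2 or 3.

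In the TGF-beta and BMP pathway 7 of 50 members rose (14%) and 2 fell (4%), against 10.9% and 9.92% of all genes (median 0.16). Library-size scaling gave 2 higher and 4 lower with a median of -0.02, and DESeq2 and limma-voom each 7 higher and 4 lower. Of 10 receptors of these ligands tested, 3 rose and 7 did not pass. The 3 were Bmpr1a, a type I receptor of BMPs, from 152, 129 and 151 CPM to 274, 245 and 267 CPM (0.86 ± 0.12, adjusted p = 0.000919), Tgfbr1, the type I receptor of TGF-beta, from 88.8 ± 8.81 to 160 ± 22.0 CPM (0.84 ± 0.15, adjusted p = 0.00231), and Acvr2a, an activin receptor, by 0.58 ± 0.13. In young knock-out these receptors stood at 264 ± 33.0, 195 ± 29.9 and 98.6 ± 13.3 CPM and in old wild type at 150 ± 4.83, 77.6 ± 4.90 and 50.5 ± 2.01 CPM. The inhibitor Smurf2 rose by 0.53 ± 0.12. Ltbp3, which holds TGF-beta latent in the matrix, fell from 261 ± 37.3 to 124 ± 21.4 CPM (-1.07 ± 0.19, adjusted p = 0.00285). The other 3 that rose, Smad5, which carries BMP signals, the inhibitor Skil and Ltbp2, lost their calls without old knock-out replicate 2 or 3 or young wild-type replicate 2 or 3 (adjusted p 0.0733 to 0.167), and Skil also without old knock-out replicate 1 (0.102) or young wild-type replicate 1 (0.0657). Eng, an accessory receptor also made by endothelial cells, fell by 0.82 ± 0.22. With the offsets 3 rose (Bmpr1a, Smurf2 and Ltbp2) and 1 fell (Ltbp3), and Tgfbr1 had an adjusted p of 0.055 and Acvr2a of 0.791. Acvr2a lost its call without old knock-out replicate 3 (0.0505), and Eng without old knock-out replicate 1 (0.06) or 2 (0.0788) or young wild-type replicate 1 (0.1). Without old knock-out replicate 3, 4 rose.

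Of 50 JAK-STAT members 8 rose (16%) and 5 fell (10%), against 10.9% and 9.92% of all genes (median -0.07). Jak2, a kinase bound to cytokine receptors, rose from 108, 67.0 and 98.5 CPM to 173, 168 and 160 CPM (0.87 ± 0.15, adjusted p = 0.00227), beside 102 ± 3.65 CPM in old wild type and 183 ± 3.57 CPM in young knock-out. The interferon gamma receptor Ifngr1 (0.63 ± 0.14) rose, as did the inhibitor Socs5 (0.78 ± 0.17) and the list member Spred1 (0.88 ± 0.18). Stat2, which carries interferon signals, fell from 70.6 ± 12.1 to 35.9 ± 6.28 CPM (-0.99 ± 0.16, adjusted p = 0.00163, old wild type 40.1 ± 0.224 CPM and young knock-out 41.9 ± 3.34 CPM), and Pias3, an inhibitor of STAT proteins, by 1.03 ± 0.20. The other 4 that rose (Osmr, Lepr, Socs4 and Socs6) and the other 3 that fell (Pias4, Ctf1 and Bcl3) each lost the call without 2 to 5 of the 6 libraries taken singly (adjusted p 0.054 to 0.199). With the offsets 5 rose and 3 fell (median 0.05), and Spred1 had an adjusted p of 0.0592. Library-size scaling gave 5 higher and 7 lower, and the fit without Lars2 8 and 3. The number higher was 5 without old knock-out replicate 1 or 3 or young wild-type replicate 2, and the number lower was 2 without old knock-out replicate 3 or young wild-type replicate 2 and 3 without old knock-out replicate 1 or 2 or young wild-type replicate 1.

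Cell cycle genes showed no common direction: 4 of 42 rose (9.52%) and 4 fell (9.52%), near the 10.9% and 9.92% of all genes (median -0.01). Bub1, a spindle checkpoint kinase, rose from 15.9 ± 1.20 to 38.2 ± 10.4 CPM (1.27 ± 0.30, adjusted p = 0.0119), and Mcm4, part of the replicative helicase, by 0.63 ± 0.15. Ccnd3, a cyclin of early G1, fell from 136 ± 3.8 to 74.5 ± 12 CPM (-0.86 ± 0.13, adjusted p = 0.00136) and the transcription factor E2f1 by 1.09 ± 0.25. With the offsets 0 rose and 3 fell, and Bub1 (adjusted p = 0.0709), Mcm4 (0.0765) and E2f1 (0.0706) were not called. Mcm4 also lost its call without old knock-out replicate 2 (0.0535) or young wild-type replicate 2 (0.0587). The number higher was 1 without old knock-out replicate 2 and 2 without old knock-out replicate 3 or young wild-type replicate 2. The number lower was 2 without old knock-out replicate 1 or any 1 young wild-type library, and 7 with DESeq2. Library-size scaling gave 2 higher and 6 lower.

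Inhibitors of the cell cycle and p53 genes also moved both ways, with 4 of 26 higher and 4 lower (15.4% each, against 10.9% and 9.92% of all genes). Cdkn1c, the inhibitor p57, stood at 1310, 1460 and 1480 CPM in young wild type against 614, 568 and 681 CPM in old knock-out (-1.19 ± 0.14, adjusted p = 0.000463), with 751 ± 40.9 CPM in old wild type and 1070 ± 155 CPM in young knock-out. Trp53, which encodes p53, fell from 104, 110 and 106 CPM to 39.5, 54.7 and 32.0 CPM (-1.32 ± 0.24, adjusted p = 0.00309), with 104 ± 8.44 CPM in old wild type and 45.3 ± 16.1 CPM in young knock-out. Neither gene overlapped between groups. Cdkn1a, the inhibitor p21 and a target of p53, fell by 0.99 ± 0.20, and the p53 targets Ccng1 and Trp53inp1 rose by 1.18 ± 0.20 and 1.23 ± 0.19. Rb1, the retinoblastoma protein, rose by 1.09 ± 0.20. Cdkn2a, the senescence marker p16 and p19, stood at 12.4 ± 3.18 against 14.9 ± 7.81 CPM (adjusted p = 0.583). With the offsets 3 rose and 3 fell, and leaving out single libraries gave 3 or 4 higher and 4 lower.

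Of 39 secretory and inflammatory genes 3 rose (7.69%) and 4 fell (10.3%), against 10.9% and 9.92% of all genes. Il33, an alarm cytokine, rose from 31.0, 34.4 and 31.7 CPM to 94.0, 179 and 174 CPM (2.21 ± 0.39, adjusted p = 0.00391), beside 59.4 ± 13 CPM in old wild type. Cxcl5, a neutrophil chemokine, rose from 1.79 ± 0.874 to 9.49 ± 6.63 CPM and Hgf, hepatocyte growth factor, from 3.48 ± 0.722 to 8.14 ± 3.36 CPM. Of 6 binding proteins of insulin-like growth factors 4 fell, Igfbp5 by 1.17 ± 0.27, Igfbp4 by 0.98 ± 0.21, Igfbp3 by 0.92 ± 0.19 and Igfbp2 by 1.80 ± 0.43, while Igfbp6 (1.16, adjusted p = 0.374) and Igfbp7 (0.06, adjusted p = 0.87) did not pass. Il6 had a log2 fold change of -0.13 ± 0.35. Hgf (adjusted p = 0.225) and Igfbp2 (0.0598) were not called with the offsets. Hgf was also lost without old knock-out replicate 2 or 3 or young wild-type replicate 1 or 3 (0.0596 to 0.116), and Igfbp2 without old knock-out replicate 1 (0.0568) or 3 (0.0526). Leaving out single libraries gave 2 to 5 higher, with 5 without old knock-out replicate 1 and 2 without replicate 2.

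Immediate early genes, which answer growth factors and stress within minutes, were lower where they differed. In all 0 of 34 rose and 5 fell (14.7%), against 10.9% and 9.92% of all genes (median -0.22, and 0.03 with the offsets). Egr3 fell from 52.6, 39.0 and 40.3 CPM to 14.7, 16.7 and 15.7 CPM (-1.49 ± 0.25, adjusted p = 0.00223), beside 24.5 ± 7.13 CPM in old wild type and 17 ± 5.72 CPM in young knock-out. Egr2 fell by 0.95 ± 0.19, Egr1 by 1.35 ± 0.39, Zfp36l1, which speeds mRNA decay, by 1.37 ± 0.24 and Fosl1 by 1.24 ± 0.34. Fosl1 (adjusted p = 0.0811) and Egr1 (0.088) were not called with the offsets, which gave 1 higher and 4 lower. Egr1 lost its call without old knock-out replicate 1, 2 or 3 or young wild-type replicate 1 or 2 (0.0512 to 0.099). Fosl1 lost its call without old knock-out replicate 2 (0.0845) or 3 (0.0757) or young wild-type replicate 2 (0.0721) or 3 (0.0667). The number lower was 3 without old knock-out replicate 2 or 3 or young wild-type replicate 2, and with only the 6 libraries compared 2 rose and 8 fell.

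Interferon-stimulated genes were lower in 10 of 35 cases (28.6%) and higher in 1 (2.86%), against 9.92% and 10.9% of all genes. The median was -0.22 with and without the offsets. Oasl2 stood at 53.2, 42.6 and 47.9 CPM in young wild type against 27.9, 19.1 and 21.8 CPM in old knock-out (-1.07 ± 0.18, adjusted p = 0.00193), with 41.8 ± 5.75 CPM in old wild type and 23.1 ± 3.38 CPM in young knock-out. Irf2, an interferon regulatory factor, fell by 1.42 ± 0.28, Bst2, the virus-tethering protein tetherin, by 0.88 ± 0.19 and the RNA sensor Dhx58 by 1.05 ± 0.25. Ifit2 rose by 0.83 ± 0.27, and its call was lost without old knock-out replicate 1 or 3 or any 1 young wild-type library (adjusted p 0.0543 to 0.151). With the offsets 0 rose and 7 fell, and without old knock-out replicate 2 the number lower was 6. DESeq2 gave 2 higher and 11 lower, and library-size scaling 0 and 12.

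The Hoxa cluster was expressed at low levels, and 2 of 9 tested genes were lower (22.2%, against 9.92% of all genes), with a median of -0.45. Besides Hoxa9, Hoxa3 fell from 2.13, 2.47 and 2.16 CPM to 0.300, 0.602 and 1.45 CPM (-1.69 ± 0.52, adjusted p = 0.0342). Hoxa10, next to Hoxa9 in the cluster, had a log2 fold change of -0.39 ± 0.20 (adjusted p = 0.189) and Hoxa7, on the other side, -0.03 ± 0.35 (adjusted p = 0.966). Hoxa5 (-0.82 ± 0.32), Hoxa4 (0.47 ± 0.57), Hoxa6 (1.07 ± 0.63) and Hoxa11 (-0.45 ± 0.53) did not pass. Hoxa3 lost its call without old knock-out replicate 1 (0.135) or 2 (0.129) and without young wild-type replicate 1 (0.0752), 2 (0.0847) or 3 (0.074), and no member was called with the offsets. Of 11 other Hox genes, Hoxc6, Hoxc10 and Hoxc11 fell. Hoxc10, a gene of the hindlimb, stood at 27.2, 29.6 and 21.1 CPM in young wild type against 12.6, 12.7 and 10.2 CPM in old knock-out (-1.11 ± 0.24, adjusted p = 0.00737). Hoxc11 fell by 1.14 ± 0.22 and Hoxc6 by 1.07 ± 0.28, and all 3 were called with the offsets. Hoxc6 was lost without old knock-out replicate 1 (0.0549) or 3 (0.0638) or young wild-type replicate 2 (0.069).

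Of 44 Trithorax and Polycomb genes 3 rose (6.82%) and 9 fell (20.5%), against 10.9% and 9.92% of all genes (median -0.12). Setd1a, a methyltransferase of histone H3 lysine 4, fell from 151, 118 and 122 CPM to 64.2, 61.6 and 52.0 CPM (-1.14 ± 0.17, adjusted p = 0.00102), with 116 ± 4.61 CPM in old wild type and 63.4 ± 14.2 CPM in young knock-out. Wbp7, a further methyltransferase gene, fell by 0.84 ± 0.19. Among Polycomb genes Pcgf2 fell by 1.43 ± 0.25 and Phc1 by 0.84 ± 0.16, and Suz12, a core subunit of the H3 lysine 27 methyltransferase complex, rose by 0.76 ± 0.14, as did Pcgf5 (0.83 ± 0.18) and Bmi1 (0.65 ± 0.20). Bmi1 was lost without old knock-out replicate 2 or 3 or any 1 young wild-type library (adjusted p 0.0637 to 0.123). With the offsets 0 rose (Suz12, adjusted p = 0.0818) and 5 fell. The 3 that rose hold 40.2% to 41.6% GC and the 9 that fell 52.8% (Kdm5c) to 59.6% (Kdm6b). The number higher was 2 without old knock-out replicate 2 or 3 or young wild-type replicate 2 or 3.

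Respiratory chain, chaperone and ribosomal genes differed in small numbers, beside 10.9% higher and 9.92% lower of all genes. Of 74 respiratory chain genes 4 rose and 3 fell (median log2 fold change -0.00), with Ndufb4 of complex I at 6.13 ± 1.39 against 13.8 ± 1.43 CPM (1.19 ± 0.24) and Atp5h of the ATP synthase at 50.9 ± 13.5 against 30.1 ± 0.979 CPM (-0.75 ± 0.20). Cox6c of complex IV rose by 0.77 ± 0.16, and Uqcrfs1 of complex III by 0.54 ± 0.15, the latter lost without old knock-out replicate 1 or 3 or young wild-type replicate 1 or 2 (adjusted p 0.0502 to 0.0748). Without young wild-type replicate 1, 2 rose and 8 fell, without old knock-out replicate 3, 2 rose and 0 fell, without young wild-type replicate 2 or 3, 0 and 1 fell, and with the offsets 6 rose and 9 fell. DESeq2 gave 5 higher and 6 lower, limma-voom 5 and 1, upper-quartile scaling 4 and 5, and library-size scaling 3 and 9. Atp5h was lost without old knock-out replicate 2 (adjusted p = 0.0569) or 3 (0.0565) or young wild-type replicate 2 (0.09). Of 32 heat shock proteins and chaperones 2 rose and 3 fell. Hspa4l rose by 0.83 ± 0.17 and the co-chaperone Dnaja1 by 0.55 ± 0.15, Hsph1 fell by 0.69 ± 0.22 and Hsf1, the heat shock transcription factor, by 0.43 ± 0.14, and the offsets left 1, Hsph1 (adjusted p = 0.0448). Hsph1 was lost without old knock-out replicate 2 (0.104) or 3 (0.153) and without young wild-type replicate 1 (0.0735), 2 (0.0911) or 3 (0.13). Hsf1 was lost without any 1 of the 6 libraries (0.0545 to 0.172) and Dnaja1 without old knock-out replicate 3 or young wild-type replicate 1 or 2 (0.0807 to 0.0938). DESeq2 gave 4 higher and 5 lower, library-size scaling 1 and 5, and the fits without the filter and without Lars2 1 lower. Of 71 ribosomal protein genes 6 rose and 4 fell. Rpl15 rose from 18.3, 19.7 and 20.1 CPM to 48.5, 48.4 and 58.4 CPM (1.41 ± 0.19, adjusted p = 0.000687), with 22.0 ± 2.64 CPM in old wild type and 57.1 ± 16.6 CPM in young knock-out. Rpl10a fell by 0.82 ± 0.16, Rpl10 rose by 1.06 ± 0.25 and Rps6 by 0.82 ± 0.21, the last lost without old knock-out replicate 3 or young wild-type replicate 1 or 2 (0.052 to 0.0598). Reads of ribosomal protein genes can be split with their processed copies, so these values are uncertain. Without young wild-type replicate 1, 2 rose and 8 fell, without old knock-out replicate 3, 2 rose and 1 fell, and without old knock-out replicate 2 or young wild-type replicate 2 or 3, 1 fell. DESeq2 gave 6 higher and 7 lower, and library-size scaling 3 and 8.

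The 12 largest rises were Lars2 (log2 fold change 7.79), Ibsp, Eif2s3y (7.28), Angptl7, Uty (6.04), Ddx3y (5.54), Kdm5d (5.53), Dcn, Omd (2.92), Lamc3 (2.83), Zfp709 (2.75) and Cdh19 (2.60). Lars2 stood at 255, 1040 and 509 CPM in young wild type against 67900, 6360 and 324000 CPM in old knock-out, with 405 ± 220 CPM in old wild type and 41700 ± 47600 CPM in young knock-out. Old knock-out replicate 3, the highest, also had 70.8% of uniquely aligned reads outside genes and 7.54 reads with several alignments per gene read. Which sequences the reads counted as Lars2 came from was not tested, so the rise is not shown to be one of Lars2 mRNA. Ibsp, bone sialoprotein, had 1 read in all 3 young wild-type libraries and 256 in old knock-out, a ratio of 404 with a counting interval of 71.9 to 16000, and 16.3 of its CPM lay in replicate 2 against 1.05 and 1.45 in replicates 1 and 3. Omd, the bone and tendon proteoglycan osteomodulin, stood at 0.752 ± 0.340 against 5.63 ± 1.52 CPM. Cdh19, a cadherin of Schwann cells, rose from 7.86, 4.01 and 6.49 CPM to 62.8, 17.8 and 34.6 CPM (adjusted p = 0.0133, and 0.0818 with the offsets). Ibsp was lost without young wild-type replicate 1 (0.0533), Cdh19 without young wild-type replicate 2 (0.0528), and Lamc3, a laminin gamma chain, and Dcn without old knock-out replicate 3 or any 1 young wild-type library (0.0577 to 0.077).

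Y-linked genes rose mainly through 2 libraries, and old knock-out replicate 1 also lay above every young wild-type library. Ddx3y, an RNA helicase, stood at 5.11, 125 and 151 CPM in old knock-out replicates 1 to 3 and 1.26 to 2.93 CPM in young wild type. Eif2s3y stood at 2.25, 38.7 and 68.0 CPM against 0.0802 to 0.340 CPM, and Kdm5d and Uty had the same pattern. Xist, the transcript of the inactive X, stood at 866, 17.1 and 34.9 CPM in old knock-out and 1090, 479 and 505 CPM in young wild type (-1.18 ± 1.18, adjusted p = 0.522). Without old knock-out replicate 1 its log2 fold change was -4.77 (adjusted p = 0.0054). With limma-voom 0 sex-linked genes were called, without the filter 2, and with only the 6 libraries compared 1. Without old knock-out replicates 2 and 3, which leaves replicate 1 alone, the log2 fold changes were smaller but positive. They were 3.365 for Eif2s3y, 1.318 for Uty, 1.272 for Ddx3y and 0.9379 for Kdm5d. Taken singly, libraries ended the calls of Uty (any 1 young wild-type library, adjusted p 0.054 to 0.0752), Ddx3y (young wild-type replicate 1, 0.0521) and Kdm5d (any 1 library but old knock-out replicate 1, 0.0559 to 0.0944). Every young wild-type library thus held Xist at a level above old knock-out replicates 2 and 3, and sex and group cannot be fully told apart in the contrast.

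The 12 largest falls were Ttr, Otx2, Kcne2, Kl (-7.61), Ccdc135, Atp2b2, Slc4a5 (-6.15), Enpp2 (-6.01), D3Bwg0562e, Atp2b3 (-5.52), Vat1l (-5.36) and Clic6 (-5.25). Ttr, the thyroid hormone carrier transthyretin made by liver and choroid plexus, stood at 1120, 4260 and 2130 CPM in young wild type and had no read in old knock-out. Against 3 reads over the group it was at least 20900-fold lower than the young wild-type mean, and at least 9350-fold lower than the lowest young library. Otx2, a homeobox gene of the forebrain and choroid plexus, was at least 52.8-fold lower. Kcne2 had 1 read in old knock-out against 525, a ratio of 332 (59.4 to 13100), Ccdc135 a ratio of 140 (24.8 to 5550), Atp2b2 of 91.1 (16.1 to 3620) and D3Bwg0562e of 44.3 (12 to 369). These bounds and intervals cover counting error only. Igf2, an insulin-like growth factor, fell from 1930 ± 142 to 368 ± 262 CPM (-2.39 ± 0.39, adjusted p = 0.00285). Kl, which encodes klotho, stood at 25.5, 82.1 and 39.8 CPM against 0.300, 0.268 and 0 CPM. Of 23 genes of a choroid plexus list 17 fell (73.9%) and 0 rose (median -3.89), against 9.92% and 10.9% of all genes. The list summed to 3450 to 8360 CPM in young wild type and 1120 to 4910 CPM in old wild type. It summed to 626 to 655 CPM in young knock-out and 268 to 778 CPM in old knock-out. The list was written after its leading genes had been seen. Ttr and Otx2 were at 0 in all 6 knock-out libraries, and the source of these transcripts in the wild-type libraries was not tested. The number lower was 8 without old knock-out replicate 2, 10 without old knock-out replicate 3, 11 without old knock-out replicate 1 or young wild-type replicate 2, 2 with limma-voom and 1 without both libraries with Y-linked reads. Otx2 (adjusted p = 0.0591 to 0.0808) and Kcne2 (0.0551 to 0.075) lost their calls without any 1 old knock-out library, as did Ccdc135 (0.0934 to 0.154), D3Bwg0562e (0.0579 to 0.0704) and Clic6 (0.0509 to 0.0666). Otx2 lost it also without young wild-type replicate 2 (0.0657) or 3 (0.0604), Ccdc135 without young wild-type replicate 2 (0.067), and Atp2b3 without old knock-out replicate 2 (0.0667).

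Markers of other cell types differed in few members, beside 10.9% higher and 9.92% lower of all genes. The largest shares were 14.3% higher in the neutrophil list and 14.3% lower in the fibroblast list. Of 22 macrophage and monocyte markers 0 passed in edgeR, 0 had an unadjusted p under 0.05 and 0 passed in DESeq2 (median -0.16). Among the 6 libraries compared their level was highest in old knock-out replicate 3, where Lyz2, the lysozyme of myeloid cells, stood at 45.3 CPM against 8.56 and 6.69 CPM in replicates 1 and 2 and 8.10 to 13 CPM in young wild type. Among neutrophil markers Mpo, myeloperoxidase, rose from 0.340, 0 and 0.481 CPM to 5.26, 2.14 and 11.6 CPM (4.23 ± 0.90, adjusted p = 0.00625), and the list summed to 10.3 to 14 CPM in young wild type against 10.1 to 111 CPM in old knock-out. Of 12 lymphocyte markers none reached the filter, and their sum was at most 1.85 CPM in the 6 libraries compared, 9.34 CPM in old wild type and 4.23 CPM in young knock-out. Of 14 endothelial markers 1 fell (Eng), and the list summed to 83.1 to 106 CPM and 49.1 to 72.4 CPM. Among 21 fibroblast and fibro-adipogenic markers 1 rose (Dcn) and 3 fell: Mfap4, a microfibril protein, from 145, 101 and 111 CPM to 22.5, 30.8 and 35.7 CPM (-2.02 ± 0.26, adjusted p = 0.000609), Pdgfrl by 0.85 ± 0.21 (lost without old knock-out replicate 2, 0.0524) and Cd248. As given above, single libraries also ended the calls of Eng, Dcn, Cd248, Notch3 and Cdh19. That list summed to 10900 to 13100 CPM in young wild type against 7850 to 11200 CPM in old knock-out. The pericyte and smooth muscle list had 1 of 17 lower (Notch3), the Schwann and neural list 1 of 16 higher (Cdh19) and 1 lower (Egr2), and the erythroid list 0 of 4, with Hbb-b1 at 165 ± 60.8 against 109 ± 66.5 CPM. With the offsets the fibroblast list had 0 higher and 4 lower, the pericyte list 1 higher (Cspg4) and 0 lower, the Schwann list 0 higher and 1 lower, and the endothelial list 1 lower (Tek in place of Eng). DESeq2 gave 2 higher in the neutrophil list, 3 lower in the endothelial list, and 2 higher and 5 lower in the fibroblast list. Library-size scaling gave 3 lower in the endothelial and 2 lower in the pericyte list, and only the 6 libraries compared gave 3 lower in the endothelial list and 2 higher in the fibroblast and pericyte lists. The part of other cells in the differences of matrix, tendon and cytokine genes was not tested.

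**Figure D5:**
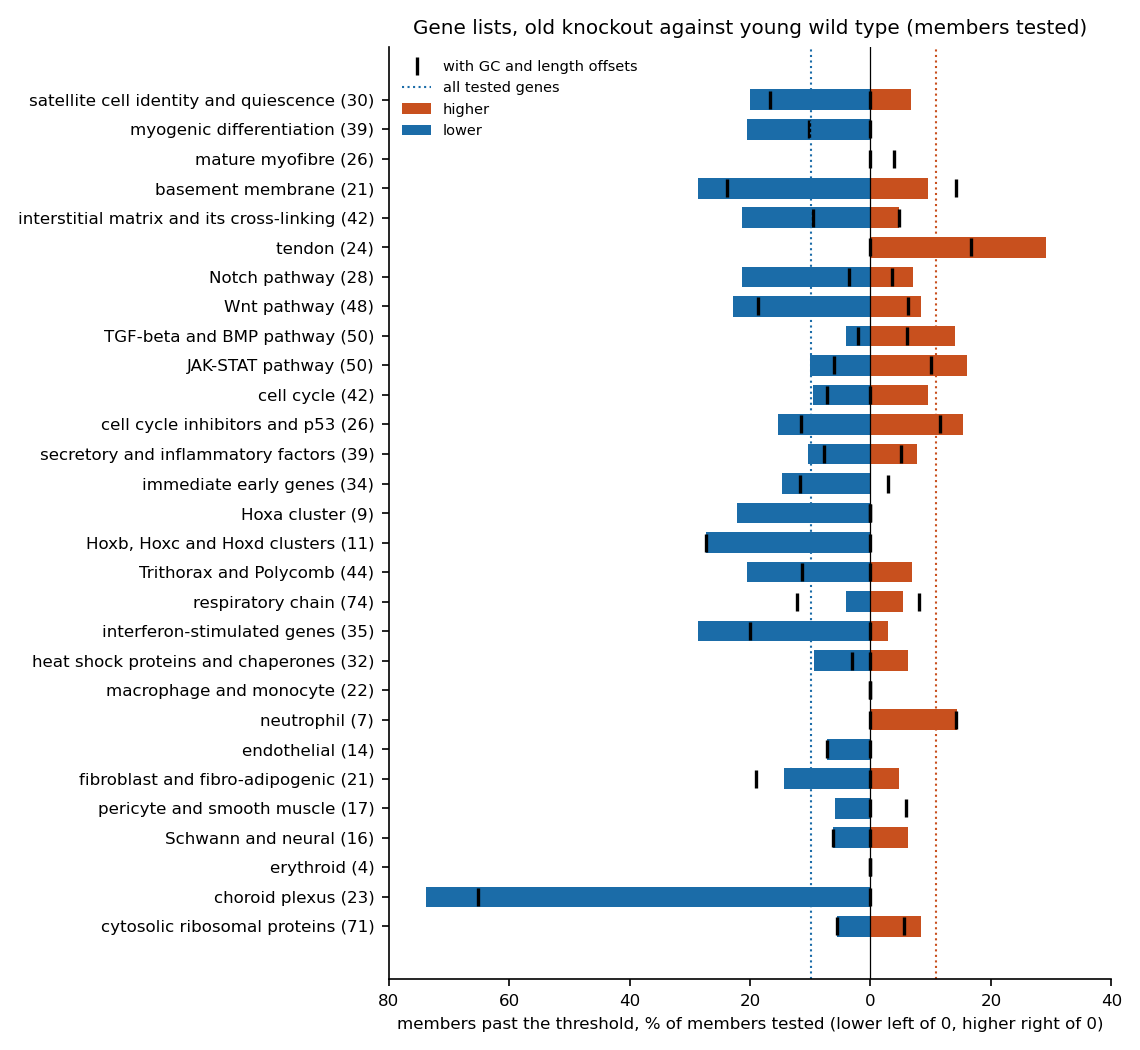
Percent of tested members of each gene list (without the ageing, sex-linked and lymphocyte lists) that were lower (left of 0) or higher (right of 0) in old knock-out than in young wild type, with the number tested in brackets. Dotted lines mark all tested genes (9.92% lower, 10.9% higher) and ticks the values with GC and length offsets. Choroid plexus genes reach 73.9% lower, but that list was written after its leading genes had been seen, and limma-voom called 2 of them lower. Tendon genes reach 29.2% higher.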

How the data were processed

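RNA-seq of satellite cells was deposited as raw counts, 1 file a library with 1 whole number for each gene symbol. The counts were made by the authors with TopHat and HTSeq on mm9, and DESeq2 is also named, all per the submitters' processing notes. Libraries were stranded total RNA after removal of ribosomal RNA, per the labels. For the use of strand in counting, the setting was not given in the sources used here, so reads of overlapping antisense genes may be mixed.

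Of 22310 symbols, 13540 passed edgeR's filterByExpr over all 12 libraries. Lines for reads outside genes and ambiguous reads were kept out (32.2% to 70.8% and 0.433% to 1.37%). TMM scaling and edgeR's quasi-likelihood test (edgeR 4.0.16, limma 3.58.1, R 4.3.3) were fitted to the 4 groups, and adjusted p-values follow Benjamini and Hochberg over all genes tested, with a threshold of 0.05. CPM are counts per megaread of scaled library size, and log2 CPM used a prior count of 2. The fit was also run on simulated data, the outcome of which is not reported here. Old knock-out and young wild type share replicate numbers, but libraries of the same number did not deviate together, so no pairing was used. Alternatives were DESeq2 1.42.0, limma-voom, other scalings and filters, a replicate block, a 1.5-fold minimum, per-library offsets for GC content and transcript length (GENCODE M21, 92.3% of symbols matched, no coordinates used), removal of Lars2 and omission of libraries.

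The 32 lists (989 symbols, 973 in the files, 888 tested) and the comparison were chosen with earlier results of these data known. The named genes are Hoxa9, Lars2, Ttr, the 12 largest changes in each direction (mean log2 CPM over 1, no overlap between groups), up to 4 members of each list with the smallest adjusted p or, if none passed, the 2 most abundant, all ageing, Hoxa and sex-linked genes (1 member is not reported here), and all tested members of small groups. Further members were named after their values were seen. Promoter sequences and their coordinates are those of RefSeq GRCm38.p6, another build than that of the counts. Markers at 0 were bounded with a floor of 3 reads over the group, which covers counting error only.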

Additional observations from a re-analysis of the deposited data

Results flagged for a closer look

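Reads that fall outside the gene counts were higher in part of the old knock-out libraries than in any young wild-type library. They made up 48.6% of uniquely aligned reads in old knock-out replicate 1 and 70.8% in replicate 3, against at most 38.3% in young wild type, and 32.7% in old knock-out replicate 2. Old knock-out replicate 3 also held 7.54 reads with several alignments for each read counted in a gene, against at most 3.22 in young wild type. The same library took 25% of its gene reads from Lars2. Which sequences these reads came from was not tested.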

How the results depend on the processing

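Against 2824 genes (1481 higher, 1343 lower) and 197 called list members, a 1.5-fold minimum gave 167 (73, 94) and 30, GC and length offsets 1415 (642, 773), and these offsets with the replicate block 1082 (476, 606) and 110. Library-size scaling gave 640 higher. Leaving out 1 library gave 1364 to 2209 genes, 766 to 1299 higher, 598 to 985 lower and 118 to 194 list members. Omitting both libraries with Y-linked reads gave 462 (246, 216) and 54. Chosen after seeing the data, the offsets without those libraries gave 189 (90, 99) and 33, and without old knock-out replicate 3, 497 (226, 271) and 46. DESeq2 (3234), limma-voom (2805) and the other scalings and filters stayed within 1.5 times. Hoxa9 had -0.84 (adjusted p = 0.469) with the fold minimum, -0.82 (0.0541) with offsets, -0.79 (0.0693) with offsets and block, -1.01 to -0.67 without 1 library, -0.67 (0.34) without both Y-linked libraries, and -0.62 (0.445) and -0.88 (0.106) in the added analyses. The distance from young wild type to old knock-out was 2.34 over the 500 most variable genes against 0.842. Socs4 turned to -0.0244 with offsets, -0.0006475 with offsets and block, -0.0394 with offsets without both Y-linked libraries and -0.0344 with offsets without old knock-out replicate 3. Without both Y-linked libraries Fmod turned to -0.0578, and with offsets as well Ccne2 to -0.0518, Hgf to -0.19, Kera to -0.29 and Lox to -0.14. The cause was not tested, except that omissions leave fewer samples. The replicate block, for numbers that do not pair the samples (same-number correlations -0.0688 to -0.0413), called 2321 genes, 1231 higher and 1090 lower. Depth limits genes of few reads, and old knock-out replicate 3 is the shallowest of the 6 libraries compared.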
